A study of Mus musculus with 6 samples.

Results

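Interferon gamma, genes that raise or restrain its production, and the receptor chains for all interferon types were described in colitis mice receiving berberine (BBR) or sulfasalazine (SASP). The 10 genes were Ifng, Il12rb1, Tbx21, Il18, Il18bp, Ifngr1, Ifngr2, Ifnar1, Ifnar2 and Ifnlr1, found by symbol among 18268 genes of an expression table. Of these 10, 7 reached the level required for testing, and Ifng, Il12rb1 and Tbx21 did not. The members were chosen by pathway with their FPKM differences between the drugs already known, so their own values are a description. No p-value is printed for a member, and counts of members past a threshold are given beside the share of all genes and support nothing.

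The samples were colorectal tissue of adult male C57BL/6 mice, all with colitis from 7 days of dextran sulfate sodium (DSS) in drinking water, which damages the mucosa. A drug was given by gavage for 6 days, the plant alkaloid BBR in 3 mice and the anti-inflammatory SASP in 3 others. Mice without a drug were not analysed here, so a gene lower under BBR and a gene higher under SASP cannot be told apart. Levels were FPKM, fragments per kilobase of transcript scaled to library size.

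Interferon gamma is a cytokine made mainly by T cells, natural killer (NK) cells and innate lymphoid cells. Interleukin 12 (IL-12) and interleukin 18 (IL-18) act together on these cells to raise its output, and the transcription factor T-bet, encoded by Tbx21, switches on the gene. The interferon gamma receptor, made of IFNGR1 and IFNGR2, signals through the kinases JAK1 and JAK2, and its targets include antigen-processing genes and guanosine triphosphatases. Type I interferons use IFNAR1 and IFNAR2, and type III interferons use IFNLR1 with IL10RB, a pair active mostly on epithelium.

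Estimated depth was similar in all libraries, at 16400000 to 18200000 reads. BBR mouse 3 stood apart from its group, with a correlation across genes of 0.953 and 0.949 with BBR mice 1 and 2, against 0.987 between these. The epithelial marker Epcam was abundant in all mice, at 833 to 1101 FPKM, as was the smooth muscle marker Myh11 at 75.0 to 473 FPKM. The smooth muscle marker sum was 3200 to 7439 FPKM in BBR and 869 to 2635 FPKM in SASP mice, without overlap. Each result was also fitted with a smooth muscle score as covariate, the mean log2(FPKM + 1) of the smooth muscle markers. This score was 7.48 to 8.60 in BBR and 5.73 to 7.25 in SASP mice, also without overlap. In that fit smooth muscle content and the drug cannot be fully told apart, so a call lost there has no clear reading. In bulk tissue, fewer cells of a type and less RNA per cell cannot be told apart.

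Promoter sequence was examined for motifs of the pathway and is shown for Ifng and Il18bp, whose levels did not overlap between the drugs, and for Ifnar2, whose levels did. RefSeq promoters (GRCm38.p6) were matched for 9 members, all but Il12rb1, and the 250 bases before the annotated start were read. The genome build named in the submitters' processing notes is mm9, so these coordinates do not carry over to the reads. The motifs searched on both strands were the interferon gamma activated site GAS (TTCNNNGAA), the core of the interferon-stimulated response element ISRE (GAAA, any 2 bases, GAAA) and the core element of T-box factors such as T-bet (TCACACC). They were present in 7.02%, 2.98% and 3.33% of all 32851 promoters. Capitals mark a GAS match, printed for the sense strand of each gene, at chr10:118440796-118441045 (plus strand), chr16:91372533-91372782 (plus strand) and chr7:102018233-102018482 (minus strand).
Ifng: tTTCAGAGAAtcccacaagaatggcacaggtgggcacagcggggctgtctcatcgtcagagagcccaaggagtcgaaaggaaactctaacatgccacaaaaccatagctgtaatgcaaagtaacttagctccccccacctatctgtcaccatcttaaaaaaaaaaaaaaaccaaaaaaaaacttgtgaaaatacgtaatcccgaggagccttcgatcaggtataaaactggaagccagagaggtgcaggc
Ifnar2: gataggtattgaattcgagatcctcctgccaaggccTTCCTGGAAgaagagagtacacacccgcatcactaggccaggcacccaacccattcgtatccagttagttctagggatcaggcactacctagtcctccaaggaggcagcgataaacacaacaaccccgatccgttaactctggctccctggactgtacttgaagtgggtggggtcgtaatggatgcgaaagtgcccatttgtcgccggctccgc
Il18bp: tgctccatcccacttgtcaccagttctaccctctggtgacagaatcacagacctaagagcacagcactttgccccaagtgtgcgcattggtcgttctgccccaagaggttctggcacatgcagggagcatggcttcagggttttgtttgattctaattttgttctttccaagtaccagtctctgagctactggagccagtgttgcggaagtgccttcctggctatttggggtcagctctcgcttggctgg
The GAS letters were present in Ifng, 249 to 241 bases before the start, and in Ifnar2, 214 to 206 bases before it. The ISRE core and the T-box element were present in none of the 9 windows, nor was GAS in the window of Il18bp. A match is a description of letters and not a site in use, and absence covers this window only.

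The receptor genes also share position. In the same RefSeq annotation Ifnar2, Il10rb, Ifnar1 and Ifngr2 lie next to each other on chromosome 16. Of these neighbours, Ifngr2 and Ifnar1 had non-overlapping groups and Ifnar2 and Il10rb did not. Ifng lies beside Il22 and its copy Iltifb on chromosome 10, and Ifngr1 beside Il22ra2 and Il20ra on the same chromosome.

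Ifng was listed at 0 in all 3 BBR mice, and at 1.19, 0.30 and 0.21 FPKM in SASP mice 1, 2 and 3. All SASP mice therefore lay above all BBR mice, but the SASP level was carried largely by mouse 1. At the estimated depth these values stand for about 26, 7 and 4 reads. In a BBR mouse, a count of 0 allows a level of up to 0.148 to 0.151 FPKM (3 reads, counting error only), just under the lowest SASP value. That SASP value, at about 4 reads, has counting error of its own, so its distance from the BBR mice may lie within counting error. No fold change was calculated against a group at 0, and Ifng was too low to be tested.

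Il12rb1 encodes the receptor subunit shared by IL-12 and interleukin 23. Its level was 0.21, 0.19 and 0.08 FPKM in BBR mice and 0.32, 0.42 and 0.46 FPKM in SASP mice, again without overlap. The group means were 0.16 ± 0.070 and 0.40 ± 0.072 FPKM (SD, n = 3 each), about 4 to 10 reads per BBR mouse and 16 to 22 per SASP mouse. Tbx21 was lower still, at 0.04, 0.05 and 0.04 FPKM in BBR mice and 0.08, 0.04 and 0.08 FPKM in SASP mice. These groups overlapped, and with about 2 to 4 reads per mouse a difference was not detectable at this depth.

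Il18bp stood out from the other members. It encodes a secreted decoy that binds IL-18 and keeps it from its receptor, and it is itself a known interferon gamma target. It was at 5.51, 3.24 and 10.9 FPKM in BBR mice and at 126, 34.3 and 92.8 FPKM in SASP mice. The lowest SASP value was above the highest BBR value, and SASP mouse 2 was the lowest of its group. Group means were 6.55 ± 3.94 and 84.2 ± 46.2 FPKM (SD, n = 3 each), and the difference BBR minus SASP in log2(FPKM + 1) was -3.44 (SE 0.54).

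Il18 itself, which intestinal epithelium makes without stimulation, was abundant in both groups. It was at 226, 174 and 286 FPKM in BBR mice and at 132, 231 and 132 FPKM in SASP mice. The groups overlapped because SASP mouse 2 lay above BBR mice 1 and 2. The difference in log2(FPKM + 1) was 0.49 (SE 0.27, 95% confidence interval -0.15 to 1.14), not larger than the spread between mice, and it was -0.035 once the smooth muscle score was included.

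The ratio of Il18 to Il18bp transcript, a measure added after the values were seen, was 41.0, 53.6 and 26.2 in BBR mice and 1.05, 6.73 and 1.42 in SASP mice. In every BBR mouse Il18 transcript was thus in large excess over that of its decoy, while in SASP mice 1 and 3 both were near the same level. The mean ratio was 40.3 ± 13.7 in BBR and 3.07 ± 3.18 in SASP mice (SD, n = 3 each). On leaving out single mice the BBR mean was 33.6 to 47.3, and the SASP mean was 1.23 without mouse 2 and 3.89 to 4.07 without either of the others.

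**Figure D1:**
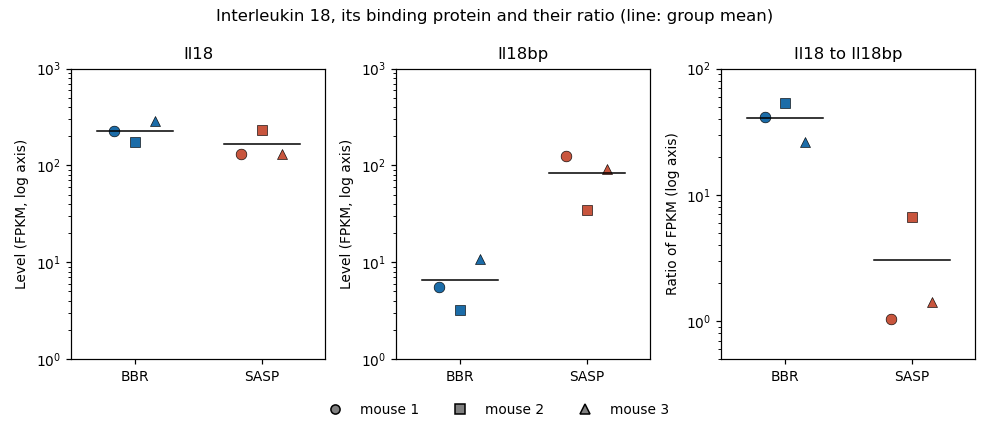
Levels of Il18 and Il18bp in FPKM and their ratio in each mouse, on log axes, with mice as symbols and the group mean as a line. The Il18 groups overlap, whereas Il18bp is at 3.24 to 10.9 FPKM in BBR and 34.3 to 126 FPKM in SASP mice, and the ratio is 26.2 to 53.6 against 1.05 to 6.73.

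Among the receptor chains, Ifngr1 was the most abundant, and it hardly differed between the drugs. This ligand-binding chain of the interferon gamma receptor was at 256, 271 and 254 FPKM in BBR mice and at 252, 273 and 297 FPKM in SASP mice. The groups overlapped, and the difference in log2(FPKM + 1) was -0.072 (95% confidence interval -0.33 to 0.19). Its sign changed with quantile normalization (0.025).

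Ifngr2, the signalling chain that brings in JAK2, was at 105, 115 and 89.9 FPKM in BBR mice and at 80.8, 78.6 and 66.7 FPKM in SASP mice. The lowest BBR value exceeded the highest SASP value, and the difference in log2(FPKM + 1) was 0.45 (SE 0.13). The ratio of Ifngr1 to Ifngr2 transcript was 2.36 to 2.82 in BBR and 3.12 to 4.45 in SASP mice. Transcript of the ligand-binding chain thus exceeded that of its partner in all 6 mice.

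The type I chains were present at far lower levels than the interferon gamma receptor chains. Ifnar1 was at 9.80, 9.94 and 7.69 FPKM in BBR mice and at 6.93, 7.36 and 7.16 FPKM in SASP mice. These groups did not overlap, although BBR mouse 3 came close to SASP mouse 2, and the difference in log2(FPKM + 1) was 0.31 (SE 0.13). Ifnar2 was at 4.15, 6.30 and 5.66 FPKM in BBR mice and at 5.57, 5.28 and 6.4 FPKM in SASP mice. Here the groups overlapped, with a difference in log2(FPKM + 1) of -0.10 (95% confidence interval -0.49 to 0.30), which was 0.050 without BBR mouse 1.

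Ifnlr1, the chain particular to type III interferons, was at 7.52, 8.39 and 6.34 FPKM in BBR mice and at 5.95, 5.06 and 5.59 FPKM in SASP mice. The groups did not overlap, and the difference in log2(FPKM + 1) was 0.36 (SE 0.14). Its partner Il10rb was at 57.1, 59.8 and 41.3 FPKM in BBR and at 42.9, 46.2 and 45.9 FPKM in SASP mice, with overlap. Its difference in log2(FPKM + 1) was 0.21 (limma adjusted p = 0.369), and it was past the threshold without BBR mouse 3 (0.37).

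By mean level in SASP mice the order was Ifngr1, Il18, Il18bp, Ifngr2, Ifnar1, Ifnar2, Ifnlr1, Ifng, Il12rb1 and Tbx21. In BBR mice it was Ifngr1, Il18, Ifngr2, Ifnar1, Ifnlr1, Il18bp, Ifnar2, Il12rb1, Tbx21 and Ifng, so that Il18bp moved from the third to the sixth place and Ifng to the last. In BBR mice the ranges of Ifngr1 and Il18 overlapped, as did those of Ifnar1 and Ifnlr1, and the range of Il18bp covered all of Ifnar1, Ifnlr1 and Ifnar2. In SASP mice the range of Il18bp covered that of Ifngr2 and lay above those of the type I and III chains, among which only Ifnlr1 and Ifnar2 overlapped. In SASP mice the ranges of Ifng and Il12rb1 also overlapped.

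**Figure D2:**
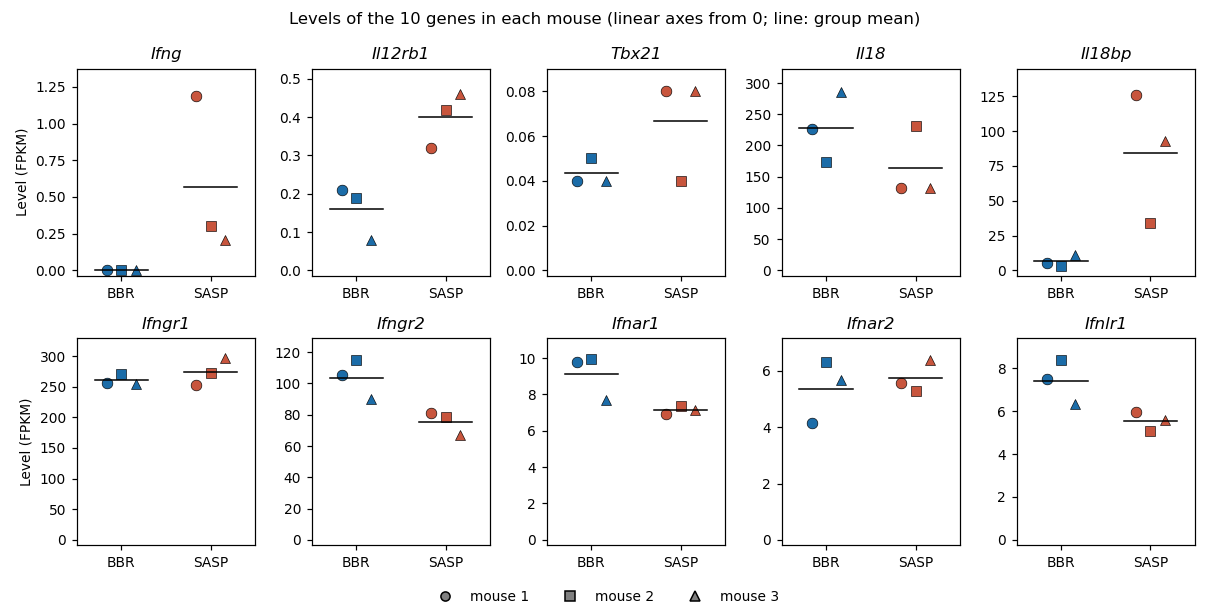
Level in FPKM of each of the 10 genes in the 3 BBR and 3 SASP mice, with mice as symbols, the group mean as a line and a separate linear axis from 0 for each gene. Ifng is at 0 in all BBR mice, Il18bp is at 34.3 FPKM or more in all SASP mice, and Ifngr1 lies between 252 and 297 FPKM in all 6.

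Of the 7 members tested, 1 was past the threshold of limma over all genes (adjusted p below 0.05), Il18bp, which was lower under BBR. Over all 12072 genes tested, 8.86% were past it, 5.04% as lower and 3.82% as higher. As higher, 0 members passed. The median difference of the 7 in log2(FPKM + 1) was 0.31, against 0.097 for all genes tested. Groups did not overlap in 6 of the 10 members, 3 lower under BBR (Ifng, Il12rb1 and Il18bp) and 3 higher (Ifngr2, Ifnar1 and Ifnlr1), where 30.7% of all genes listed did not overlap, 12.2% as lower and 18.5% as higher.

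The calls depended on single mice. Il18bp was past the threshold in 11 of 15 alternative fits, and not without BBR mouse 1 (-3.40), SASP mouse 1 (-3.06) or SASP mouse 3 (-3.28), nor with the smooth muscle covariate (-3.08), a fit in which 0.157% of all genes and 0 members passed. Without BBR mouse 3, Ifngr2, Ifnar1 and Ifnlr1 were past it as higher under BBR, with differences of 0.54, 0.42 and 0.46, in a fit that called 22.3% of all genes as higher and 33.8% in either direction. Array weights, which count divergent mice less, called 6 of 7 members against 59% of all genes, and quantile normalization called 2 of 7 against 14.4%.

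Downstream, Jak1, Jak2 and Tyk2, the kinases bound to the receptor chains, had differences in log2(FPKM + 1) of 0.16, 0.20 and 0.26 (limma adjusted p = 0.314, 0.243 and 0.179). Tyk2 was past the threshold without BBR mouse 3 (0.33). Stat2, a transcription factor of type I and III signalling, was at 11.5, 10.3 and 11.3 FPKM in BBR mice and at 47.3, 34.2 and 44.4 FPKM in SASP mice. No BBR mouse came near the SASP range, and the difference in log2(FPKM + 1) was -1.83 (SE 0.14, limma adjusted p = 0.00187). Its call was lost with the smooth muscle covariate (-1.64) and held in the other alternatives. Irf9, its DNA-binding partner, had a difference of -1.09 (adjusted p = 0.0186), a call lost with the smooth muscle covariate and when BBR mouse 1, or SASP mouse 1, 2 or 3, was left out.

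Of 11 tested transducers and inhibitors, 4 were past the threshold as lower under BBR (Stat2, Irf9, Socs1 and Usp18) and 0 as higher. At an unadjusted p below 0.05 it was 5 and 0. Over all genes tested, 5.04% were past the threshold as lower and 3.82% as higher. Usp18, counted among the 11 and the 4, was at 0.73 to 1.35 FPKM in BBR mice. It reached the testing level only with SASP mice, so its call adds little to this count. The median difference of the 11 was -0.47. With the smooth muscle covariate 0 passed in limma, with 6 lower at an unadjusted p below 0.05. Stat4, also of this list, was too low to be tested and overlapped, at 0.10 to 0.32 FPKM in BBR and 0.28 to 0.64 FPKM in SASP mice. On leaving out single mice, the number past the threshold was lowest, at 1, without BBR mouse 1 or SASP mouse 3, and was 2 without SASP mouse 1. Without BBR mouse 3 it was 7, 6 lower and 1 higher, in a fit that called 33.8% of all genes. Socs3, which restrains cytokine receptors, was at 3.52 and 3.38 FPKM in BBR mice 1 and 2 but at 79.1 FPKM in BBR mouse 3, against 20.8 to 39.0 FPKM in SASP mice (adjusted p = 0.435). Without BBR mouse 3 it passed the threshold, with a difference of -2.66.

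Genes of the other inducers of interferon gamma did not move as 1 group. Of 19 listed genes 4 were tested, with a median difference of -0.079, and 2 were lower under BBR and 0 higher in limma, the same counts as at an unadjusted p below 0.05. Il15ra, which presents interleukin 15 to lymphocytes, was at 4.56, 3.46 and 3.37 FPKM in BBR mice and at 8.77, 9.12 and 8.21 FPKM in SASP mice (difference in log2(FPKM + 1) -1.02, SE 0.14, adjusted p = 0.0132). Its call was lost without SASP mouse 1 or 3 and with the smooth muscle covariate. Il15 was at 22.2 and 28.8 FPKM in BBR mice 1 and 2, but at 6.47 FPKM in BBR mouse 3, within the SASP range of 5.41 to 8.37 FPKM (difference 1.15, adjusted p = 0.159). Without BBR mouse 3 it passed the threshold as higher, with 1.76.

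Casp1, the protease that cuts IL-18 into its active form, was at 117, 104 and 108 FPKM in BBR mice and at 163, 144 and 180 FPKM in SASP mice. The groups did not overlap, with a difference in log2(FPKM + 1) of -0.56 (SE 0.12, adjusted p = 0.0365). The call held when BBR mouse 3 was left out and was lost on leaving out each of the other mice, on testing unfiltered genes and with the smooth muscle covariate. Hlx, a T-bet partner, had a difference of 0.40 (adjusted p = 0.412), with a sign that changed with array weights and with the smooth muscle covariate.

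The direct partners of the members in IL-12 and IL-18 signalling were below the testing level. Il12rb2, the other IL-12 receptor subunit, was at 0.40 to 0.65 FPKM in BBR and 0.25 to 0.33 FPKM in SASP mice, without overlap and opposite to Il12rb1. Il12b, a subunit of IL-12 itself, was at 0 to 0.02 FPKM in BBR mice and at 0.17, 0 and 0.14 FPKM in SASP mice, with overlap. The IL-18 receptor genes Il18r1 and Il18rap also overlapped, at 0.05 to 0.29 and 0.03 to 0.20 FPKM in BBR and at 0.16 to 0.54 and 0.14 to 0.26 FPKM in SASP mice.

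Targets of interferon gamma had a difference below 0 in 28 of 28 tested genes, that is, less transcript under BBR, with a median difference in log2(FPKM + 1) of -2.97. Over all genes 22 were past the threshold as lower and 0 as higher in limma, with 27 and 0 at an unadjusted p below 0.05. With the smooth muscle covariate 8 were past it, and 23 at an unadjusted p below 0.05. Ciita, Cxcl9 and Nlrc5 are counted among the 28 tested and the 22 past the threshold. In BBR mice they were at 0.34 to 0.66, 0.04 to 0.16 and 0.29 to 0.54 FPKM, and they reached the testing level only through SASP mice. Their direction was therefore fixed by the filter and adds nothing to these counts. Nos2, counted among the 28 only, was at 0.80, 0.29 and 29.3 FPKM in BBR mice and also needed SASP mice to reach that level. Gbp2, an interferon-inducible guanylate-binding protein, was at 15.1, 18.3 and 21.3 FPKM in BBR mice and at 877, 301 and 1002 FPKM in SASP mice (difference -5.08, SE 0.43, adjusted p = 0.00285). Igtp, an immunity-related GTPase, and the transcription factor Irf1 had differences of -5.65 and -1.68 (adjusted p = 0.000214 and 0.00478). With the smooth muscle covariate Igtp kept its call, and those of Gbp2 (-4.66) and Irf1 (-1.57) were lost. Cd74, the invariant chain of class II antigen presentation, had overlapping groups and a difference of -1.60 (adjusted p = 0.0926), which was -2.19 and past the threshold without SASP mouse 2. Without SASP mouse 1, 14 of 25 targets were past the threshold, where 0.418% of all genes were lower, and without SASP mouse 3 it was 14 of 25, where 0.378% were.

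Targets that answer foremost to type I and III interferons had a difference below 0 in 17 of 17 tested genes, with a median difference of -2.37. In limma 15 were past the threshold and 0 were higher, with 17 and 0 at an unadjusted p below 0.05. With the smooth muscle covariate 0 of 17 were past it, and 14 were lower at an unadjusted p below 0.05. Ifi44, counted among the 17 and the 15, was at 0.43 to 0.61 FPKM in BBR mice. It reached the testing level only through SASP mice, so its direction was fixed by the filter. Oas2, also counted in both, was at 0.66 to 1.58 FPKM in BBR mice and did not reach that level without SASP mice. Isg15, a ubiquitin-like modifier, was at 12.6, 5.02 and 12.4 FPKM in BBR mice and at 143, 64.9 and 122 FPKM in SASP mice (difference -3.35, adjusted p = 0.00891). Oasl2 and Oas1a, of the oligoadenylate synthetase family, had differences of -3.28 and -0.92 (adjusted p = 0.00891 and 0.0373), and Irf7 had -1.30 (adjusted p = 0.0621), past the threshold without SASP mouse 2 (-1.66). The calls of Isg15, Oasl2 and Oas1a were lost with the smooth muscle covariate and without SASP mouse 1 or 3, and that of Oas1a also without BBR mouse 1 or 2 and with no filter. Here 2 of 16 targets were past the threshold without SASP mouse 1, where 0.418% of all genes were lower. Without SASP mouse 3 it was 2 of 16, where 0.378% were. Many of these genes also answer to interferon gamma, so the lists do not part the interferon types, and 13 of 14 other interferon and receptor genes, including Ifnb1, were not analysed here.

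**Figure D3:**
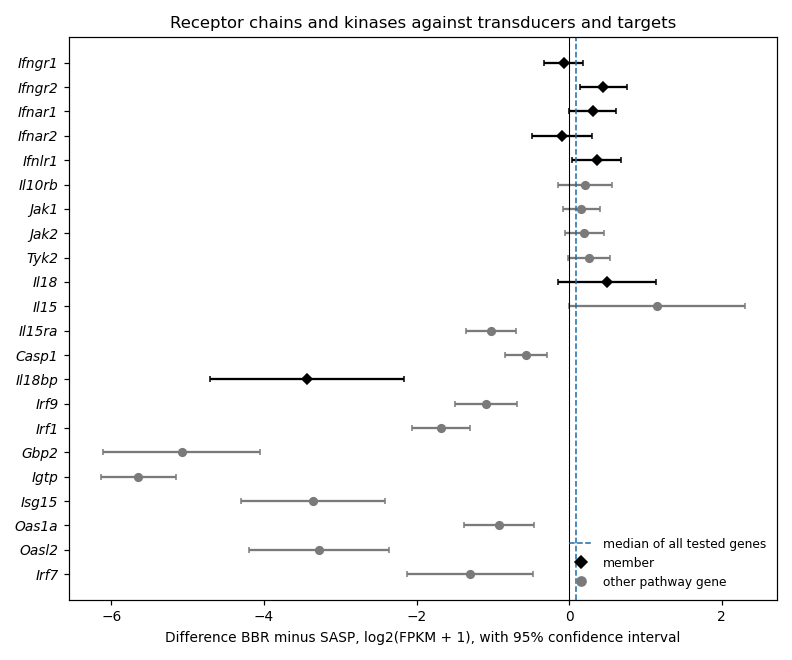
Difference BBR minus SASP in log2(FPKM + 1) with its 95% confidence interval from limma, not adjusted for the number of genes, for tested members (diamonds) and other pathway genes (circles). The dashed line is the median of all genes tested, 0.097. Interferon receptor chains and kinases lie between -0.10 and 0.45, whereas Il18bp, Irf9 and the 7 targets drawn lie between -0.92 and -5.65. Il15ra, Casp1, Il18 and Il15 lie at -1.02, -0.56, 0.49 and 1.15. Over both full target lists the differences run from -0.22 to -6.09.

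Cells that can make interferon gamma left few reads. The sum of 14 T cell markers was 6.06 to 10.5 FPKM in BBR and 4.97 to 12.5 FPKM in SASP mice, with overlap and 0 of 3 tested genes past the threshold in limma (0 at an unadjusted p below 0.05). Of these markers 8 had the higher mean in BBR and 6 in SASP mice, and all 14 overlapped between the groups. Cd3e, part of the T cell receptor complex, was at 0.57 to 1.2 FPKM in BBR and 0.32 to 0.67 FPKM in SASP mice, and the CD8 chain Cd8b1 at 0.30 to 0.48 and 0.47 to 2 FPKM. The sum of 9 markers of NK cells and type 1 innate lymphoid cells was 2.83 to 5.90 FPKM in BBR and 3.50 to 10.02 FPKM in SASP mice, again with overlap, and 4 markers had the higher mean in BBR and 5 in SASP mice. Ncr1 was at 0.11 to 0.15 and 0.04 to 0.11 FPKM, and the granzyme Gzmb at 0.42 to 0.72 and 0.62 to 3.24 FPKM. SASP mouse 1, with the highest Ifng, had the highest sum of both lists. SASP mouse 3 had more of both than SASP mouse 2, and their Ifng, at about 4 and 7 reads, was too low to rank these mice. BBR mouse 2, with Ifng at 0, had a T cell sum above SASP mice 2 and 3 and below SASP mouse 1. Its NK cell sum was above SASP mouse 2 and below SASP mice 1 and 3. The part of cell content in the Ifng level was not tested.

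The sum over 6 genes shared by leukocytes was 17.0 to 27.8 FPKM in BBR and 26.8 to 60.5 FPKM in SASP mice, with overlap and 0 of 6 past the threshold in limma (4 lower at an unadjusted p below 0.05). That of 15 macrophage and dendritic cell genes was 109 to 136 and 202 to 236 FPKM, without overlap, and 3 of 10 tested genes were lower under BBR (Cd14, Ccr2 and Fcgr1), while Csf1r was at 2.88 to 5.43 and 3.68 to 3.86 FPKM. Fcgr1, at 0.42 to 0.63 FPKM in BBR mice, reached the testing level only through SASP mice, so its direction was fixed by the filter. Lyz2 and Cd14 made up most of this sum, and the other 13 genes overlapped, at 17.8 to 23.2 FPKM in BBR and 20.8 to 24.0 FPKM in SASP mice. The sum of 5 granulocyte genes was 1.87 to 15.3 and 28.3 to 36.7 FPKM, carried by S100a8 and S100a9, and 1 of 4 tested genes, S100a8, was past the threshold. The other 3 genes overlapped, at 1.76 to 3.89 and 2.85 to 3.23 FPKM. S100a8, at 0, 0 and 6.19 FPKM in BBR mice, reached the testing level only with SASP mice. The epithelial sum was 10268 to 14626 FPKM in BBR and 9455 to 10259 FPKM in SASP mice. Its difference was carried by Car1 (means 1602 and 417 FPKM) and Tff3 (2610 and 1735 FPKM). Of these 14 genes 8 overlapped, 4 were higher under BBR without overlap and 2 were lower. Past the threshold were Vil1 as lower and Krt18 and Cdx2 as higher. The stromal sum was 321 to 432 FPKM in BBR and 161 to 258 FPKM in SASP mice, without overlap. All 10 stromal genes had the higher mean in BBR mice, and 3 of them overlapped. Past the threshold as higher were 4 (Col1a1, Col3a1, Lum and Thy1), and 0 with the smooth muscle covariate. The part of these cell types in the levels of the 10 genes was not tested.

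**Figure D4:**
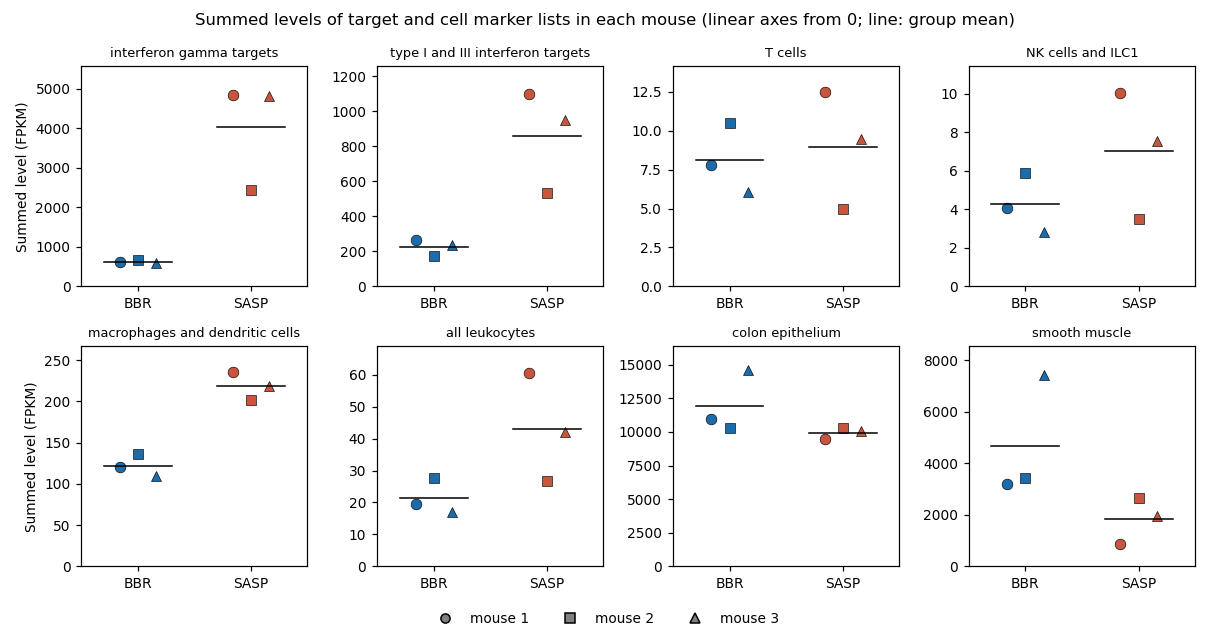
Summed FPKM of interferon target lists and of cell marker lists in each mouse, with the group mean as a line and a linear axis from 0 for each list. Interferon gamma targets sum to 577 to 670 FPKM in BBR and 2444 to 4843 FPKM in SASP mice, while the T cell and NK cell sums overlap between the groups.

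Of 4 transcription factors of T cell lineages, 1 was tested, Bcl6, and 0 passed in limma (0 at an unadjusted p below 0.05). Bcl6 had overlapping groups and a difference of -0.34 (adjusted p = 0.441), which was -0.67 and past the threshold without BBR mouse 3. Gata3, Foxp3 and Eomes were at or below 0.17 FPKM in all 6 mice.

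The tested genes whose levels over the 6 mice were most like those of Ifng were Atp5md, Atp5k and Ddost, with a Pearson correlation of log2(FPKM + 1) of 0.990, 0.987 and 0.981. All 3 were highest in SASP mouse 1, and 18 tested genes reached 0.95. For Tbx21 they were H3f3b, H2-M3 and Gdap2, at 0.992, 0.990 and 0.980, on a Tbx21 pattern of few reads. With 6 mice and 12072 genes such values only describe these libraries.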

How the data were processed

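RNA of colorectal tissue was sequenced in 3 colitis mice receiving BBR and 3 receiving SASP, grouped by the treatment label. Replicate numbers follow accession order and pair no mice, and the labels do not describe single mice. The authors deposited FPKM values, rounded to 2 decimals, made with SOAPnuke, Bowtie2 2.2.5 and RSEM 1.2.12. The submitters' processing notes name mm9, and the annotation is not given in the sources used here. The study describes rRNA depletion and single-end reads, while the labels name another library kit. RSEM divides reads among similar genes, and strand use is not stated.

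Genes with at least 1 FPKM in at least 3 of 6 samples were tested (12072). Values were transformed as log2(FPKM + 1), which understates changes of low genes, and were compared with limma 3.58.1 (R 4.3.3), with a mean-variance trend, two-sided, with Benjamini-Hochberg adjustment over all tested genes at 0.05. Where nothing says that samples came from separate cages or days, p-values measure the spread between these samples. The limma step was tested on simulated data.

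The members and lists were chosen with earlier results of these data known, and some items of the lists are not reported here. Genes named were all members, the 4 most abundant tested genes of each pathway list and the direct partners of members. Of marker lists, sums and defining genes are given. Stat4, Nos2, Cd8b1, Gzmb, the genes that carry a sum and those counted as past the threshold were named after their values were seen. Depth was estimated from genes shorter than 1500 bases seen in 1 sample, taking the typical value as 1 read, with GENCODE M21 lengths. Alternatives were other pseudocounts, filters, scalings, weights, a smooth muscle covariate and leaving out each mouse.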

Additional observations from a re-analysis of the deposited data

How the results depend on the processing

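The number of genes that differed in limma, 1069, became 608 with no filter, 1737 with quantile normalization, 1684 with median-ratio scaling, 7126 with array quality weights and 19 with the smooth muscle covariate. It ranged from 51 without SASP mouse 3 to 4018 without BBR mouse 3. The 1 member past the threshold became 2 with quantile normalization, 6 with array weights and 0 with the covariate, and from 0 to 4 on leaving out single mice. Calls that were higher made up 43.1% of all calls, 65.1% with array weights, 29.6% with median-ratio scaling and 10.5% with the covariate. Median-ratio scaling also moved the median of all genes by -0.12.

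Both target lists kept their direction in all fits. The median of interferon gamma targets was -3.48 and -3.52 with pseudocounts of 0.1 and 0.01, -2.30 with the covariate and -3.48 to -2.57 on leaving out single mice. That of type I and III targets was -2.85, -2.89, -1.69 and -2.42 to -1.85 in the same order. Transducers had -0.69 to -0.30 without single mice. The 4 other inducers had no stable sign, with 0.039 and 0.061 at pseudocounts of 0.1 and 0.01, -0.56 at a mean of at least 5 FPKM and -0.24 to 0.077 without single mice. The 1 T cell lineage factor had -0.88 with array weights, -0.92 with the covariate and -0.67 to -0.11 without single mice. Signs also changed for Ifngr1 (0.025, quantile normalization), Ifnar2 (0.050 without BBR mouse 1, and -0.20 to 0.050 over single mice left out), Il18 (-0.035, covariate) and Hlx (-0.22 with array weights and -0.42 with the covariate). For the named genes, 341 of 404 alternative values kept sign and side of the threshold, 34 lost the call, 24 gained one and 5 changed sign. The cause was not tested. No paired analysis was possible because the replicate numbers pair no mice across groups. Depth limits Ifng, Il12rb1 and Tbx21, which no filtered fit tested.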

Other observations

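Cytokine genes upstream of interferon gamma were close to the limit of detection. Il27, a cytokine subunit made by antigen-presenting cells, was at 0, 0.05 and 0 FPKM in BBR mice and at 0.10, 0.14 and 0.21 FPKM in SASP mice. The groups did not overlap, but the SASP values stand for about 2 to 4 reads each. Il12a was at 0.05 to 0.09 FPKM in BBR and 0.09 to 0.16 FPKM in SASP mice, about 1 to 3 reads. Il23r, the other receptor chain that pairs with IL12RB1, was listed at 0 in all BBR mice and at 0.10, 0.02 and 0.02 FPKM in SASP mice, about 4, 1 and 1 reads. These genes were chosen after their values were seen, and none was tested.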
